A study of Mus musculus with 8 samples.

Results

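The genes described here encode the proteins of the mitochondrial ribosome that carry an Mrpl or Mrps symbol followed by a digit. The rule took every protein-coding gene of that form and left out 6 pseudogenes, which gave 78 genes among 55401 in the count table, 49 with an Mrpl and 29 with an Mrps symbol. They were measured in an RNA immunoprecipitation (RIP) series, in which an antibody recovers a protein from a lysate and the RNA that comes with it is sequenced. All tissue came from C57BL/6 mice and was labelled hippocampus, with no age, sex or treatment in the labels. The CaMKIIβ RIP group (3 libraries) used an antibody to CaMKIIβ, the IgG RIP group (3 libraries) used IgG as the control antibody, and the Input group (2 libraries) is the starting RNA without immunoprecipitation. The gene Camk2b encodes CaMKIIβ, a subunit of a calcium/calmodulin-dependent protein kinase that is abundant in neurons, and the series title gives long noncoding RNAs bound to it as the subject. The labels do not say that replicates came from separate animals, so p-values measure the spread between these libraries, which may be technical.

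Mitochondria carry their own ribosome, which makes the few proteins encoded in mitochondrial DNA, all of them membrane subunits of the respiratory chain and of ATP synthase. Its ribosomal RNA comes from the mitochondrial genome, whereas all of its proteins are encoded in the nucleus, translated by cytosolic ribosomes and imported. Mrpl proteins were named for the large subunit, which holds the peptidyl transferase centre, and Mrps proteins for the small subunit, which reads the messenger RNA. Some descend from proteins of the bacterial ribosome and others were added during the evolution of mitochondria. Neurons depend on the respiratory chain for ATP, and loss of single mitoribosomal proteins is a known cause of human mitochondrial disease.

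Of the 78 genes, 77 were paired one to one with a gene of the count table and lay on 17 chromosomes. Mrpl33, a protein of the large subunit, had no gene of its own there: its exons lay inside a longer gene model, and it was not measured. Mrpl53, a large subunit protein, had 0 counts in every library, and 88.0% of its 790 exon bases also belonged to another gene model on the same strand. The other 76 genes passed the filter on low counts and were tested in each comparison. Summed exon length ran from 607 to 8631 bases, with a median of 2255. Exon bases were shared with another gene by 31 of the genes, and by more than 20% of their length in 10, so their counts can depend on how reads in shared exons were assigned. The strand setting of the counting is not given in the sources used here, so reads from a gene and its antisense partner cannot be told apart.

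The promoters of these genes are shown first, since several short motifs are frequent in them. RefSeq promoters on GRCm38.p6, each running from 250 bases before to 50 bases after the most upstream start, were at hand for 69 of the 78 genes and for 17492 protein-coding genes in all. Each window was searched on both strands for CCGGAAG, a core of sites bound by ETS family factors, for GCGC followed by any base and then TGCGC, the site of NRF1, a factor known for its nuclear-encoded mitochondrial targets, for AAGATGGC, a site of YY1, and for TATAAA. None of these motifs is contained in another. The 7 stretches below are the 100 bases before the start, 5′ to 3′ on the gene's strand, and do not overlap an annotated exon of the count table. Capitals mark matches to the ETS, NRF1 or YY1 motif in either orientation. They were chosen to show genes that were lower in IgG RIP than in Input (Mrpl43, Mrpl52, Mrps14, Mrpl42), a gene that was higher (Mrpl34), a gene with an NRF1 match (Mrpl45) and a gene with a divergent partner (Mrps12).
Mrpl43, chr19:45006443-45006542, minus strand: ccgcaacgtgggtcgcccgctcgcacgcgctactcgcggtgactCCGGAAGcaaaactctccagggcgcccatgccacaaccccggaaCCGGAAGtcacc
Mrpl52, chr14:54426809-54426908, plus strand: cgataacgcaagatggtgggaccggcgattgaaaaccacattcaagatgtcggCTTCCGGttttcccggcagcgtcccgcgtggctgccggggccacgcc
Mrpl34, chr8:71464826-71464925, plus strand: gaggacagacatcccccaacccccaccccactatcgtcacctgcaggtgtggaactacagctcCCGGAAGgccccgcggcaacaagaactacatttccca
Mrpl45, chr11:97315616-97315715, plus strand: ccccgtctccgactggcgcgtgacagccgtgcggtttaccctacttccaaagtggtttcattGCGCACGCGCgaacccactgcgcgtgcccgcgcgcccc
Mrps14, chr1:160195115-160195214, plus strand: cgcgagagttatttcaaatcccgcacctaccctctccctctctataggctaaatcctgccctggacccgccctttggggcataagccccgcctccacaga
Mrpl42, chr10:95501950-95502049, minus strand: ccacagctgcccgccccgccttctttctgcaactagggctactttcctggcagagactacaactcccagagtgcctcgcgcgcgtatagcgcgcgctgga
Mrps12, chr7:28741822-28741921, minus strand: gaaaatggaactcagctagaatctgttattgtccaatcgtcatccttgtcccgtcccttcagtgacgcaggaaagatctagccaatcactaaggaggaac

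Mrpl43 held the ETS motif at 2 places within these 100 bases, and Mrpl34, which moved the other way in IgG RIP, held it at 1. Mrpl52 held it in the reverse orientation, and Mrpl45 held the NRF1 motif. The stretches of Mrps14, Mrpl42 and Mrps12 had no match, although the wider windows of Mrpl42 and Mrps12 did. Over the 69 windows the ETS motif was found in 34.8%, against 11.9% of all 17492 promoters. The NRF1 motif was found in 18.8% against 6.66%, and the YY1 motif in 17.4% against 3.21%. The TATA motif was found in 5.80% of these windows against 13.3% of all. At least one of the ETS, NRF1 and YY1 motifs lay in 59.4% of the windows and in 19.6% of all promoters. A divergent partner, meaning another protein-coding gene on the opposite strand whose start lay up to 500 bases upstream or overlapped by up to 100 bases, stood at 20 of the 69 promoters (29.0%), against 6.86% of all. Mrpl46 and Mrps11, a large and a small subunit gene, faced each other, Mrps12 faced Sars2, the mitochondrial seryl-tRNA synthetase gene, and Mrpl47 faced Ndufb5, a gene of respiratory complex I. Among genes grouped by their level in IgG RIP, one of the 3 motifs lay in 14 of 23 promoters of genes that were lower than in Input, in 5 of 7 of those that were higher and in 20 of 37 of those that did not pass the threshold. A match is a run of letters and says nothing about binding in this tissue.

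**Figure D1:**
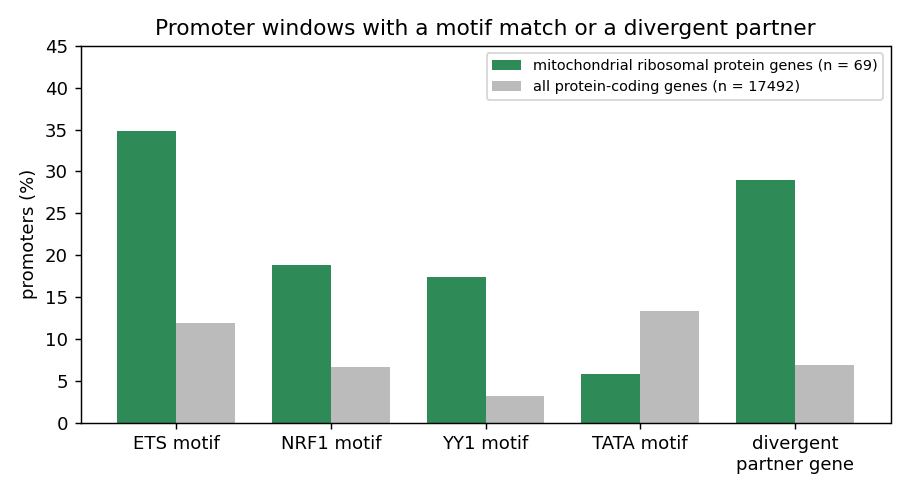
Share of promoter windows of 300 bases (y axis, %) that hold each motif or have a divergent partner gene, for the 69 mitochondrial ribosomal protein genes with a RefSeq promoter (green) and for all 17492 protein-coding genes (grey). The green bar is the taller one for ETS (34.8%), NRF1 (18.8%), YY1 (17.4%) and a divergent partner (29.0%), and the shorter one for TATA (5.80%).

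The libraries held 17273957 to 28138289 counts. CaMKIIβ RIP replicate 2 had the fewest counts and the fewest detected genes, 19247 against 24865 to 31152 in the other libraries. Checked against defining markers, the tissue label was met only in part. The 7 listed markers of hippocampal excitatory neurons summed to 264 to 321 CPM (counts scaled to a common library size) over the 8 libraries. They ran from Prox1, at 88.3 to 142 CPM, down to Spink8, at 2.66 CPM or less. In IgG RIP 5 of 7 (71.4%) were higher than in Input and 1 (14.3%) lower, against 20.1% and 18.7% of all genes. Cerebellar markers were abundant in every library (8 of 8 detected, summing to 7695 to 8941 CPM in CaMKIIβ RIP, 7837 to 8402 in IgG RIP and 4753 to 4755 in Input). Itpr1 made up most of that sum, and without it the direction of the sum turned. The other 7 markers summed to 1777 to 1877 CPM in CaMKIIβ RIP, 1862 to 1874 in IgG RIP and 2200 to 2256 in Input. Single cerebellar markers went both ways, with 4 of 8 (50%) higher and 2 (25%) lower in IgG RIP. Markers of other cell types also differed between RIP and Input. Astrocyte markers summed to 1777 to 2005 CPM in CaMKIIβ RIP, 1904 to 2073 in IgG RIP and 1326 to 1380 in Input, and 3 of 3 tested were higher in IgG RIP. Oligodendrocyte markers summed to 2321 to 2733, 2226 to 2353 and 3229 to 3336 CPM in the same order, with 2 of 4 lower and 2 higher in IgG RIP. Of the endothelial markers 2 of 3 were higher in IgG RIP, and of the microglial markers 1 of 3 was lower and 1 higher. Blood markers summed to 168 to 316 CPM in CaMKIIβ RIP, 149.99 to 168 in IgG RIP and 302 to 304 in Input, and 2 of 3 were lower in IgG RIP. Their part in the results was not tested, and in bulk tissue fewer cells of a type and less RNA per cell cannot be told apart.

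The 77 genes took a small share of the libraries, 0.106% to 0.122% of counts in CaMKIIβ RIP, 0.108% to 0.111% in IgG RIP, and 0.143% and 0.148% in Input. Both Input libraries thus lay above all 6 RIP libraries. The median count of a tested gene was 246 to 380.5 per library. The spread between replicates was widest in CaMKIIβ RIP, where the median coefficient of variation of the 76 genes was 24.3%, against 12.3% in IgG RIP and 6.44% in Input. Over all genes tested in CaMKIIβ RIP against Input the medians were 32.6%, 13.7% and 7.43% in the same order. Of the 6 RIP libraries, CaMKIIβ RIP replicate 2 had the highest level for 32 genes and the lowest for 16, and replicate 3 the lowest for 22. Such counts were not taken over all genes.

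Levels per exon length were taken as TPM, counts divided by exon length and scaled to one total per library, the scale on which genes can be set side by side, and they were unequal among these genes in Input. The highest means were those of Mrpl34, at 92.5 ± 2.74 TPM (SD, n = 2), Mrpl41, at 92.1 ± 0.739, and Mrps21, at 85.4 ± 15.2, all small proteins. Mrpl12, the flexible stalk protein that recruits translation factors, followed at 72.8 ± 7.35 TPM, and Mrpl27, a protein near the peptidyl transferase centre, at 71.2 ± 9.80. These 5 means lie close together, and the SDs of Mrps21, Mrpl12 and Mrpl27 span the gaps between them. The lowest means above 0 were those of Mrps10, at 4.89 ± 0.393 TPM, Mrpl13, at 10.4 ± 0.557, Mrps34, at 11.7 ± 2.13, and Mrpl23, at 12.1 ± 0.565. The median gene stood at 28.7 TPM. A long annotated exon sum, as for Mrps10 with 8079 bases, lowers this value where only part of it is transcribed. Of the exon bases of Mrps34, 63.4% are shared with Mapk8ip3 on the opposite strand and 37.0% with Nme3 on the same strand. The part of this overlap in its level was not tested.

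CaMKIIβ RIP against IgG RIP asks which of these messages had another level relative to other genes with the CaMKIIβ antibody than with control IgG. Counts were scaled between libraries in every comparison, so a general difference in the amount of RNA recovered would not be seen. None of the 76 genes passed the threshold, an adjusted p under 0.05 by edgeR's quasi-likelihood test, in either direction. The smallest adjusted p among them was 0.982. The background in this comparison was 0% of 20566 genes. At an unadjusted p under 0.05 stood 3 of the 76 genes (3.95%, against 3.51% of all genes), and DESeq2 and limma-voom gave 2 and 3. The median log2 fold change was 0.05, against -0.02 over all genes, and 33 of the 76 values (43.4%) were below 0, against 52.2% of all genes. Without CaMKIIβ RIP replicate 2 no gene passed either, and the median was -0.01. The 3 CaMKIIβ RIP libraries lay all above or all below the 3 IgG RIP libraries for 6 genes (7.89%), against 11.9% of all genes.

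The interval of the difference bounds what these libraries could have missed in scaled level. For 56 of the 76 genes the 95% interval lay within a 2-fold change in both directions. For 60 it stayed below a 2-fold excess in scaled level with the CaMKIIβ antibody. Mrpl48, a large subunit protein of the central protuberance, had 53.1, 51.8 and 53.7 CPM in CaMKIIβ RIP and 53.0, 56.1 and 50.9 CPM in IgG RIP. Its log2 fold change was -0.00 with an interval of -0.26 to 0.25, so that a change of 2-fold lies outside it. Mrpl41 had 17.3, 16.96 and 15.4 CPM in CaMKIIβ RIP and 15.5, 15.6 and 17.4 CPM in IgG RIP, with overlapping groups and an interval of -0.34 to 0.43.

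The gene with the smallest p was Mrpl43 (ENSMUSG00000025208.9, chr19:45004829-45006442, minus strand), a large subunit protein with no bacterial counterpart. It had 4.01, 8.42 and 3.76 CPM in CaMKIIβ RIP, 2.66, 1.95 and 2.25 CPM in IgG RIP, and 6.20 and 7.65 CPM in Input. All 3 CaMKIIβ RIP libraries lay above the IgG RIP libraries, and replicate 2 was by far the highest of them. The log2 fold change was 1.25 ± 0.44 (SE; edgeR unadjusted p = 0.0177, adjusted p = 0.982) and 0.77 without replicate 2. Of the exon bases of Mrpl43, 33.4% are shared with Twnk, the mitochondrial DNA helicase gene on the opposite strand.

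Mrps30, whose protein sits in the large subunit despite its symbol, went the other way. It had 14.1, 5.87 and 5.30 CPM in CaMKIIβ RIP, 14.8, 21.8 and 15.7 CPM in IgG RIP, and 21.4 and 18.4 CPM in Input. The CaMKIIβ RIP libraries lay below the IgG RIP libraries, replicate 1 only just. The log2 fold change was -1.03 ± 0.37 (edgeR adjusted p = 0.982). Mrpl42, a large subunit protein with no bacterial counterpart, differed by -0.57 ± 0.25, Mrpl19, which has a bacterial counterpart, by 0.41 ± 0.20, and Mrpl36, a very small protein of the large subunit, by 0.82 ± 0.47, each at the same adjusted p of 0.982. Mrps36, now known as a subunit of the 2-oxoglutarate dehydrogenase complex rather than of the ribosome, had 1.99, 0.465 and 1.93 CPM in CaMKIIβ RIP and 3.15, 4.03 and 2.25 CPM in IgG RIP. Its interval, -2.51 to 0.34, was among the widest.

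**Figure D2:**
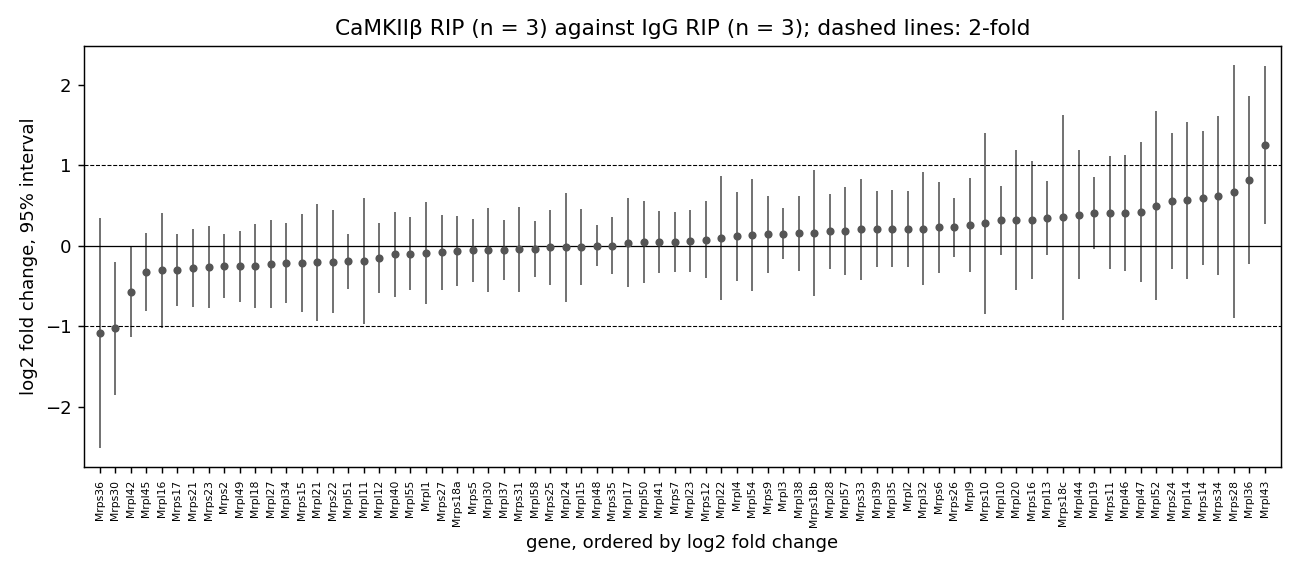
Log2 fold change of CaMKIIβ RIP (n = 3) against IgG RIP (n = 3) for the 76 tested genes (x axis, ordered by value), with 95% intervals (vertical lines) and dashed lines at a 2-fold change. Most points lie near 0, 56 intervals stay between the dashed lines, and Mrps36, Mrps30 and Mrpl43 stand at the ends.

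IgG RIP against Input asks which messages were at other levels in material recovered with a control antibody than in the RNA before immunoprecipitation. Of the 76 genes, 23 (30.3%) were lower in IgG RIP, against a background of 18.7% of 22342 genes, and 8 (10.5%) were higher, against 20.1%. The median log2 fold change was -0.21, with the middle of the genes between -0.49 and 0.04, against a median of -0.02 over all genes, and 54 of the 76 values (71.1%) were below 0, against 51.3% of all genes. The 3 IgG RIP libraries lay below both Input libraries for 42 genes (55.3%, against 33.8% of all genes) and above both for 9 (11.8%, against 26.8%). Scaling by library size alone moved the median of all genes to -0.25 and that of these genes to -0.44, and the counts to 43 lower (56.6%, against 28.4% of all genes) and 2 higher (2.63% against 12.1%). In one fit of all 8 libraries 9 were lower (11.8% against 7.15%) and 1 higher (1.32% against 8.75%). Without Input replicate 2 the counts were 11 (14.5% against 10.6%) and 2 (2.63% against 13.3%), and without Input replicate 1 the higher count was 3 (3.95% against 14.5%). Without IgG RIP replicate 1 the higher count was 5 (6.58% against 18.9%). The share of all genes called moved in the same direction as that of these genes under each of these settings.

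The largest decreases were those of Mrpl43 and Mrps14. Mrps14 (ENSMUSG00000058267.13, chr1:160195215-160202170, plus strand) encodes a small subunit protein with a bacterial counterpart. It had 14.7 and 17.8 CPM in Input, 4.73, 6.17 and 5.20 CPM in IgG RIP, and 4.14, 10.8 and 9.20 CPM in CaMKIIβ RIP. All RIP libraries lay below both Input libraries, and the IgG RIP libraries lay close together. The log2 fold change in IgG RIP was -1.54 ± 0.17 (edgeR adjusted p = 2.04e-06).

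Mrpl43, at the levels given above, fell by 1.55 ± 0.25 on the log2 scale in IgG RIP (edgeR adjusted p = 8.82e-05), while its CaMKIIβ RIP libraries straddled the Input libraries. Mrpl36 (ENSMUSG00000021607.9, chr13:73328513-73332178) had 6.77 and 9.84 CPM in Input, 3.33, 2.50 and 2.92 CPM in IgG RIP, and 2.28, 7.49 and 5.59 CPM in CaMKIIβ RIP. The groups IgG RIP and Input did not overlap, and the log2 fold change was -1.46 ± 0.24 (edgeR adjusted p = 0.000101). The spread of the CaMKIIβ RIP libraries of Mrpl36 covered most of the distance between the other groups.

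Mrpl32, a large subunit protein whose maturation by a mitochondrial protease precedes ribosome assembly, had 16.4 CPM in both Input libraries, 7.92, 6.21 and 8.27 CPM in IgG RIP, and 6.62, 6.68 and 12.4 CPM in CaMKIIβ RIP. It fell by 1.08 ± 0.16 on the log2 scale (edgeR adjusted p = 4.28e-05). Mrpl30, a large subunit protein with a bacterial counterpart, had 21.7 and 22.9 CPM in Input, 13.1, 10.7 and 11.98 CPM in IgG RIP, and 9.89, 14.3 and 9.97 CPM in CaMKIIβ RIP. Its log2 fold change in IgG RIP was -0.85 ± 0.13 (edgeR adjusted p = 7.08e-05), and for both genes all 6 RIP libraries lay below Input.

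Mrps10, in the head of the small subunit, fell by 1.07 ± 0.22, Mrpl52, a large subunit protein with no bacterial counterpart, by 1.06 ± 0.29, Mrpl16, next to the peptidyl transferase centre, by 0.76 ± 0.18, and Mrpl47, at the exit of the nascent chain tunnel, by 0.74 ± 0.18. The calls of Mrpl52, Mrpl16 and Mrpl47 were lost without Input replicate 2, at edgeR adjusted p of 0.0619, 0.0787 and 0.0592, and that of Mrpl52 also without Input replicate 1 (0.108). In the fit of all 8 libraries the calls of Mrps10, Mrpl52, Mrpl16 and Mrpl47 were lost, at edgeR adjusted p of 0.168, 0.158, 0.102 and 0.238. Mrpl47 shares 24.2% of its exon bases with Actl6a and Ndufb5 on the opposite strand. The other lower genes were Mrpl42, Mrpl50, Mrps9, Mrpl35, Mrpl57, Mrps33, Mrpl44, Mrps6, Mrpl3, Mrpl1, Mrps5, Mrpl18, Mrps2 and Mrps18c.

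The log2 fold changes of the 8 genes that were higher in IgG RIP than in Input ran from 0.24 to 0.73, and those of the 23 lower genes from -1.55 to -0.33. Mrpl12 (ENSMUSG00000039640.7, chr11:120484613-120489065, plus strand) had 25.2 and 22.5 CPM in Input, 39.6, 32.9 and 41.9 CPM in IgG RIP, and 38.5, 39.2 and 24.8 CPM in CaMKIIβ RIP. Its IgG RIP libraries lay above both Input libraries, by 0.73 ± 0.12 on the log2 scale (edgeR adjusted p = 9.54e-05), and CaMKIIβ RIP replicate 3 lay at the Input level. Mrpl34 (ENSMUSG00000034880.7, chr8:71464959-71465747), the gene with the shortest exon sum and a protein of bacterial descent, had 12.1 and 11.9 CPM in Input, 20.04, 16.4 and 19.05 CPM in IgG RIP, and 20.9, 13.01 and 13.4 CPM in CaMKIIβ RIP. It rose by 0.68 ± 0.14 (edgeR adjusted p = 0.000867). All 6 RIP libraries lay above Input for Mrpl34.

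Mrps27, a small subunit protein with pentatricopeptide repeats, rose by 0.53 ± 0.17, Mrps23, a small subunit protein with no bacterial counterpart, by 0.47 ± 0.15, and Mrpl27 by 0.44 ± 0.14. Mrpl23, at the rim of the exit tunnel, rose by 0.38 ± 0.14, and Mrpl38 and Mrpl48, both in the central protuberance, by 0.37 ± 0.13 and 0.24 ± 0.09. Of these 8 genes, only Mrpl12 and Mrpl34 also passed with library size scaling and without Input replicate 2, and in the fit of all 8 libraries only Mrpl12 did, with Mrpl34 at an edgeR adjusted p of 0.114. Mrps27 shares 24.2% of its exon bases with an unnamed gene model on the opposite strand.

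**Figure D3:**
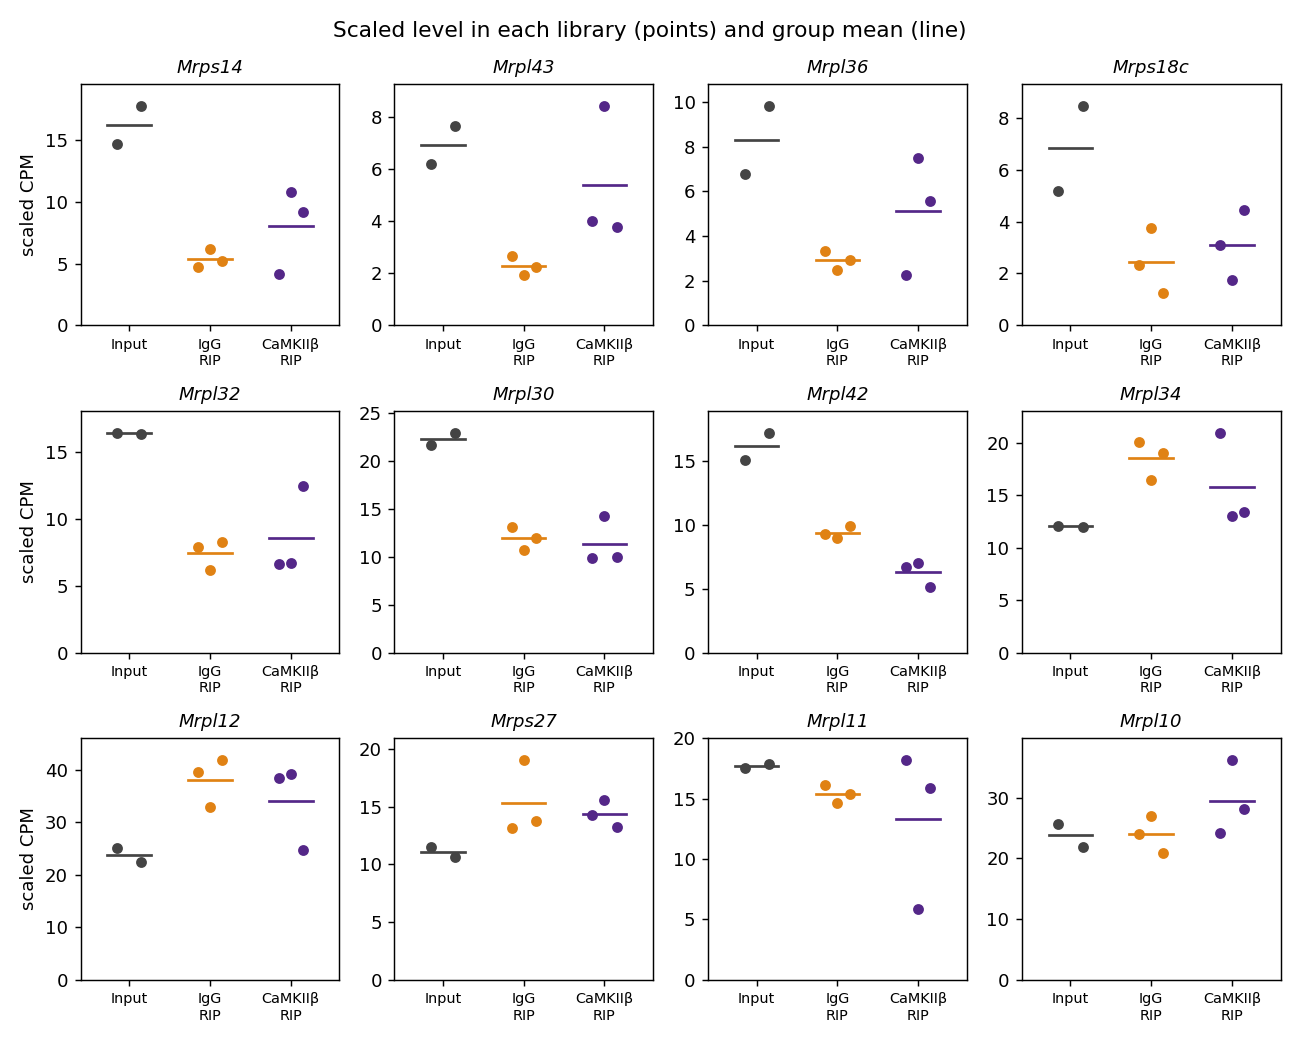
Scaled CPM (y axis, from 0) of 12 genes in each library (points) with the group mean (line), for Input (n = 2), IgG RIP (n = 3) and CaMKIIβ RIP (n = 3). Mrps14, Mrpl32, Mrpl30 and Mrpl42 lie below Input in all 6 RIP libraries, Mrpl34 and Mrps27 lie above it, and the CaMKIIβ RIP points of Mrpl43, Mrpl36 and Mrpl11 are far apart.

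Grouped by position in the ribosome, lower genes in IgG RIP against Input came from both subunits. Of 47 tested Mrpl genes 15 (31.9%) were lower and 6 (12.8%) higher, and of 29 Mrps genes 8 (27.6%) were lower and 2 (6.90%) higher, against 18.7% and 20.1% of all genes. Among small subunit genes with a bacterial counterpart 7 of 16 (43.8%) were lower and 0 higher (median -0.35), and among those without one 1 of 9 (11.1%) was lower and 2 (22.2%) were higher (median 0.12). Large subunit genes with a bacterial counterpart had 9 lower (31.03%) and 4 higher (13.8%) of 29 (median -0.22), and those without one 6 lower (31.6%) and 2 higher (10.5%) of 19 (median -0.16). Differences between these groups were not tested. Of the stalk and its base, Mrpl12 rose, while Mrpl10 had a log2 fold change of 0.07 ± 0.13 and Mrpl11 of -0.15 ± 0.13. Of the 6 genes at the rim of the exit tunnel 1 was lower and 1 higher (16.7% each, near the shares of all genes), and of 4 genes of the central protuberance 0 were lower and 2 higher.

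The 3 S18 paralogs descend from one bacterial protein and occupy different places in the mitochondrial ribosome. Mrps18c had 5.17 and 8.46 CPM in Input, 2.34, 3.76 and 1.23 CPM in IgG RIP, and 3.10, 1.74 and 4.43 CPM in CaMKIIβ RIP. It fell by 1.45 ± 0.35 on the log2 scale in IgG RIP (edgeR adjusted p = 0.00308, 0.125 without Input replicate 2 and 0.0925 in the fit of all 8 libraries), and 23.2% of its exon bases are shared with another gene model on the same strand. Mrps18a, whose protein is in the large subunit, had 18.6 and 20.5 CPM in Input and 14.6, 18.03 and 14.5 CPM in IgG RIP, a log2 fold change of -0.27 ± 0.14 that did not pass. Mrps18b had 5.53 and 5.46 CPM in Input and 6.21, 6.12 and 4.12 CPM in IgG RIP, at 0.05 ± 0.23. It shares 30.5% of its exon bases with an unnamed gene model on the opposite strand. A test of the difference between the paralogs was not run.

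CaMKIIβ RIP against Input gave fewer calls. Of the 76 genes 1 was lower, against a background of 3.4% of 22095 genes, and 0 were higher, against 5.06%. At an unadjusted p under 0.05 by edgeR stood 13 genes (17.1%, against 22.6% of all genes). The median log2 fold change was -0.29, against -0.12 over all genes, and 49 of the 76 values (64.5%) were below 0, against 56.6%. The CaMKIIβ RIP libraries lay below both Input libraries for 32 genes (42.1%, against 28.6%) and above both for 6 (7.89%, against 18.8%). Without CaMKIIβ RIP replicate 2 the count of lower genes was 7 (9.21%, against 7.39% of all genes), without replicate 3 it was 3 (3.95% against 3.99%), and without replicate 1 or either Input library it was 0, against 0% to 1.605% of all genes. Both this comparison and the previous one use the same Input libraries, so their values are not independent.

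The gene that passed was Mrpl42 (ENSMUSG00000062981.5, chr10:95480805-95501940, minus strand). It had 15.1 and 17.2 CPM in Input, 6.70, 7.03 and 5.11 CPM in CaMKIIβ RIP, and 9.28, 8.99 and 9.95 CPM in IgG RIP. The 3 groups did not overlap, with Input highest and CaMKIIβ RIP lowest. The log2 fold change against Input was -1.36 ± 0.27 in CaMKIIβ RIP (edgeR adjusted p = 0.0269) and -0.73 ± 0.15 in IgG RIP (adjusted p = 0.000719). The first call was lost without CaMKIIβ RIP replicate 1 (adjusted p = 0.103), Input replicate 1 (0.151) or Input replicate 2 (0.355), and kept without CaMKIIβ RIP replicate 2 (0.00981).

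Next came Mrpl30, at -0.97 ± 0.24 (edgeR adjusted p = 0.0545), and Mrpl16, with 11.8 and 13.7 CPM in Input and 3.93, 7.15 and 6.41 CPM in CaMKIIβ RIP, at -1.13 ± 0.34 (adjusted p = 0.0876). Both missed the threshold here and passed under alternatives. Mrpl30 passed with DESeq2 (adjusted p = 0.0167), limma-voom (0.0240), library size scaling (0.0355), no count filter (0.0369), the fit of all 8 libraries (0.0100), the replicate block (0.0227) and without CaMKIIβ RIP replicate 2 (0.00742). Mrpl16 passed with DESeq2 (0.0440), limma-voom (0.0390), the fit of all 8 libraries (0.0250), the replicate block (0.0212) and without CaMKIIβ RIP replicate 2 (0.0300). Mrps14 stood at -1.01 ± 0.41, Mrpl32 at -0.93 ± 0.34 and Mrpl43 at -0.36 ± 0.45 in CaMKIIβ RIP, and none of these passed. With the replicate block Mrps14 and Mrpl32 passed (edgeR adjusted p = 0.00768 and 0.00404), and Mrpl32 also without CaMKIIβ RIP replicate 3 (0.0329). No Input library is numbered 3, so with the replicate block the difference from Input rests on replicates 1 and 2. Both settings thus leave aside replicate 3, the highest CaMKIIβ RIP library of Mrpl32 at 12.4 CPM. Mrps30 passed as lower with no count filter (edgeR adjusted p = 0.0469) and with limma-voom (0.0493). It also passed in the fit of all 8 libraries (edgeR adjusted p = 0.0424) and with the replicate block (0.0122). Mrps10 and Mrpl47 passed as lower without CaMKIIβ RIP replicate 2 (edgeR adjusted p = 0.0128 and 0.0235). Mrpl12 stood at 0.52 ± 0.24 and Mrpl34 at 0.40 ± 0.28. Of these, Mrpl12 passed as higher with the replicate block (edgeR adjusted p = 0.0198). The standard errors were wider than in IgG RIP, with a median of 0.27 over the 76 genes against 0.15.

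**Figure D4:**
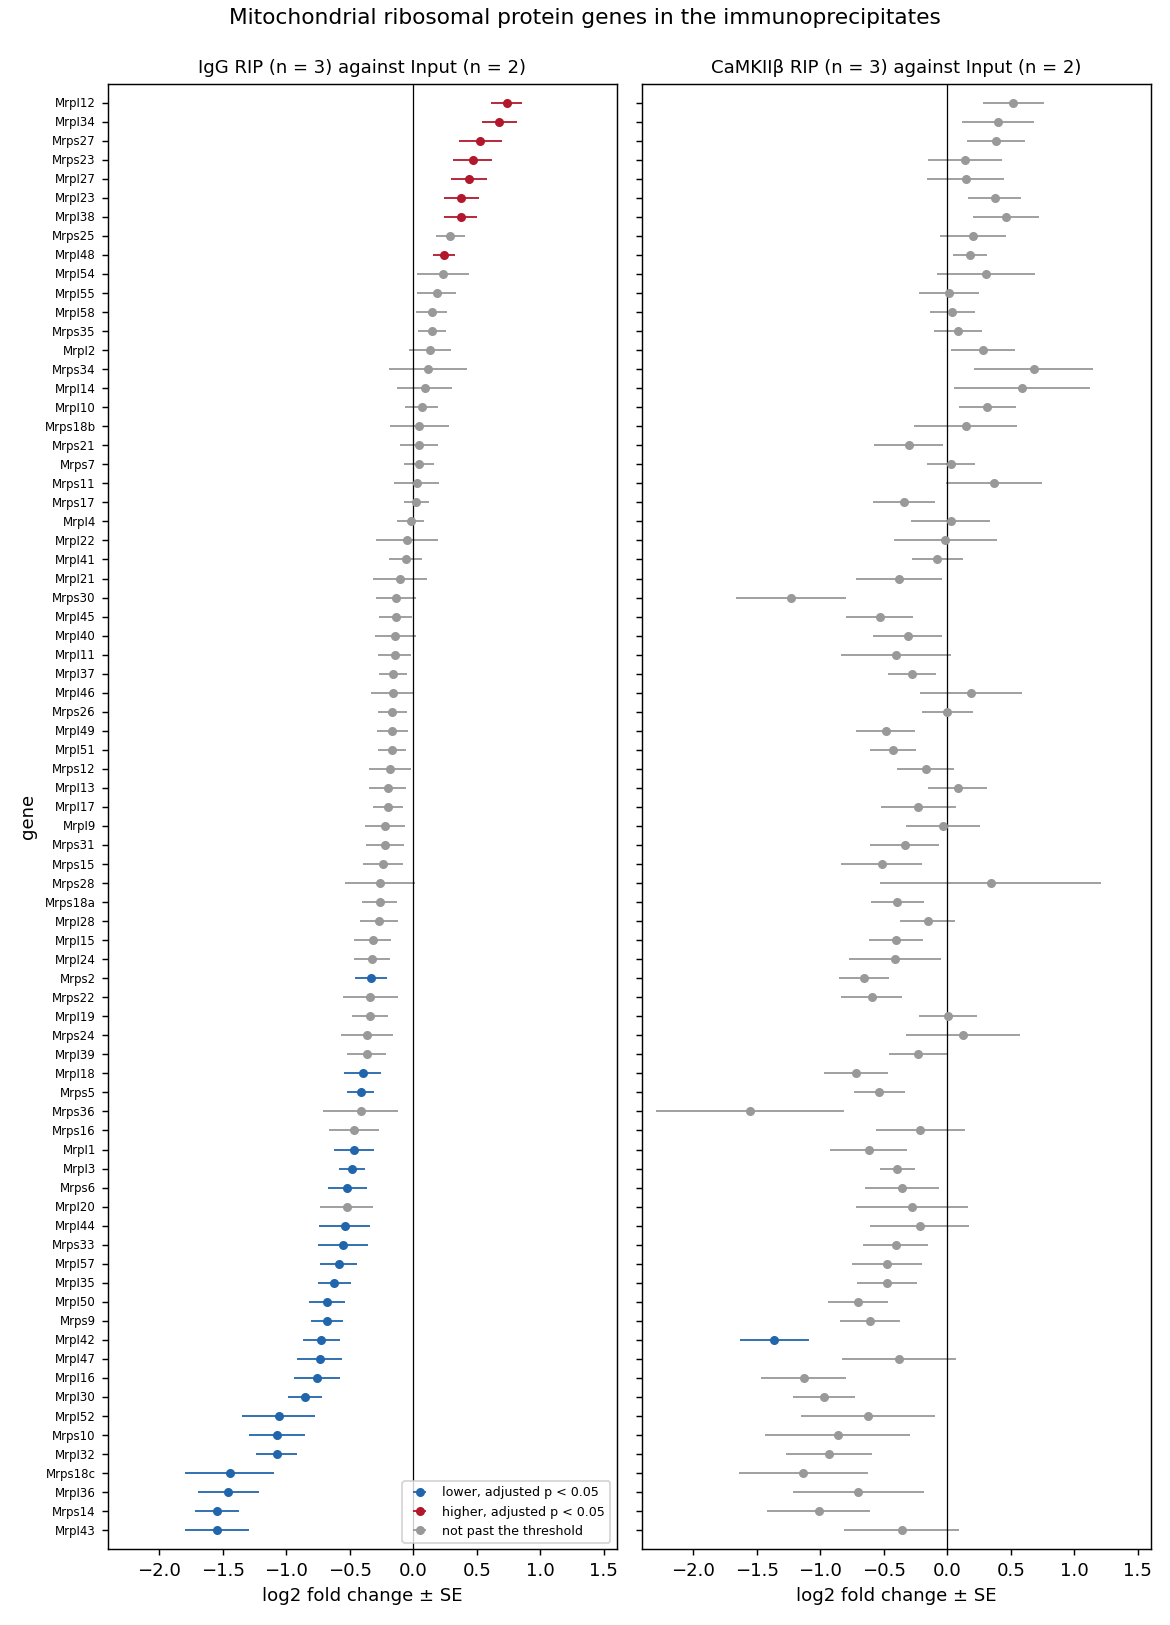
Log2 fold change ± SE against Input (n = 2) of the 76 tested genes (rows, in the order of the IgG RIP value) in IgG RIP (left, n = 3) and CaMKIIβ RIP (right, n = 3). Blue and red points passed the threshold as lower (23 on the left, 1 on the right) and higher (8 on the left, 0 on the right), and the error bars are wider on the right.

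Exon length went along with these differences in opposite ways for these genes and for genes at large. Over all genes tested, Spearman's rho between summed exon length and log2 fold change was 0.16 in IgG RIP against Input and 0.17 in CaMKIIβ RIP against Input. Over the 76 genes it was -0.16 and -0.25. These are descriptions across genes of the same libraries, which are not independent. Median exon length was 3169 bases for the 23 lower genes in IgG RIP, 1826.5 for the 8 higher genes and 2172 for the others, against 3313 for all genes. With the trend on length over all genes removed, the median of the 76 genes was -0.14 in IgG RIP, against 0.05 over all genes, and 0.03 in CaMKIIβ RIP, against 0.09. The sign of the CaMKIIβ RIP median thus turned with this choice, from -0.29, as did that of all genes, from -0.12. The median of the 76 genes stayed below that of all genes.

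Other genes of mitochondrial gene expression were read from lists of assembly factors, translation factors, aminoacyl-tRNA synthetases and RNA enzymes. In IgG RIP against Input, where 18.7% of all genes were lower and 20.1% higher, 2 of 5 mitoribosomal proteins with other symbols were lower and 0 higher, among them Ptcd3, at -0.75 ± 0.11, and Chchd1, at -0.76 ± 0.20, both small subunit proteins. Of 24 assembly and ribosomal RNA modification genes 5 (20.8%, near the share of all genes) were lower and 2 (8.33%) higher. Mterf3, which binds ribosomal RNA in assembly, stood at -1.04 ± 0.13, Grsf1, a protein of mitochondrial RNA granules, at -0.60 ± 0.09, and the assembly helicases Dhx30 and Ddx28 at 0.81 ± 0.07 and 0.59 ± 0.17. Dhx30 had 113 and 105 CPM in Input, 175, 185 and 193 CPM in IgG RIP and 206, 193 and 167 CPM in CaMKIIβ RIP, so that all 6 RIP libraries lay above Input.

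Of 12 translation factors 4 (33.3%) were lower and 3 (25%) higher, against the same 18.7% and 20.1% of all genes. The elongation regulator Guf1 stood at -1.24 ± 0.13 and the initiation factor Mtif2 at -1.08 ± 0.11, while Taco1, a translational activator of a cytochrome oxidase subunit, stood at 0.65 ± 0.16 and the elongation factor Tufm at 0.31 ± 0.12. Of 16 synthetases 4 (25%) were lower, such as Yars2 at -1.09 ± 0.18, and 5 (31.3%) higher, such as Vars2 at 0.72 ± 0.11. Of 11 genes of mitochondrial transcription and RNA turnover 5 (45.5%) were lower, such as the poly(A) polymerase Mtpap at -1.58 ± 0.16, and 3 (27.3%) higher, such as the RNA polymerase Polrmt at 0.71 ± 0.09. In CaMKIIβ RIP against Input, the lower and higher counts of these 5 lists in the same order were 1 and 0, 1 and 1, 2 and 0, 1 and 0, and 1 and 1, where 3.4% of all genes were lower and 5.06% higher. Each list thus held genes on both sides of 0 in IgG RIP except the first. In CaMKIIβ RIP against IgG RIP 0 genes of these lists passed by edgeR, as 0 of all genes did.

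Set beside other gene families whose products serve ribosomes or mitochondria, the mitochondrial ribosomal protein genes had a smaller share of lower genes in IgG RIP. Of 77 tested cytosolic ribosomal protein genes 44 (57.1%) were lower and 9 higher, with a median log2 fold change of -0.48. Of 82 nuclear genes of oxidative phosphorylation 45 (54.9%) were lower and 9 higher, with a median of -0.51. The mitochondrially encoded list holds transfer and ribosomal RNA genes as well as messages. Of its 26 tested genes, 20 (76.9%) were lower and 0 higher, with a median of -1.95. In CaMKIIβ RIP against Input these lists had 8 of 77 (10.4%), 9 of 80 (11.3%) and 5 of 25 (20%) lower genes, against 3.4% of all genes. Higher there were 0, 2 (2.5%) and 0, against 5.06%. The difference between lists was not tested. Median exon length was 1734 bases for the tested cytosolic ribosomal protein genes, 1578 for the oxidative phosphorylation genes and 322.5 for the mitochondrially encoded genes. For the 76 genes it was 2394, and the part of length in these shares was not tested.

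**Figure D5:**
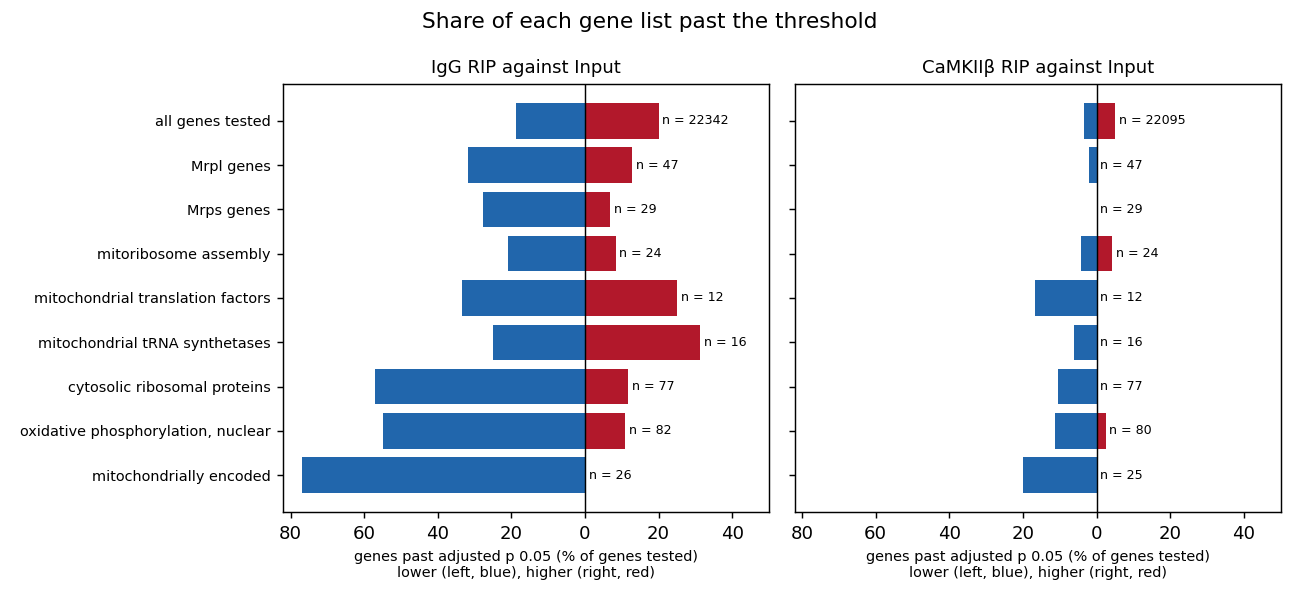
Share of the tested genes of each list past an adjusted p of 0.05 (x axis, %), lower to the left and higher to the right, in IgG RIP (left) and CaMKIIβ RIP (right) against Input, with the number tested beside each bar. In IgG RIP the lower share rises from 18.7% over all genes to 57.1% for cytosolic ribosomal proteins and 76.9% for mitochondrially encoded genes, with Mrpl and Mrps genes between.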

How the data were processed

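RNA was sequenced from 3 CaMKIIβ RIP, 3 IgG RIP and 2 Input libraries, and the deposited table holds raw read counts per gene, for which the submitters' processing notes name featureCounts 2.0.1, STAR 2.7.3a, cutadapt 2.10, Trim Galore 0.6.4 and GRCm38.p6. Its length column, other than a measurement of RNA, is the summed exon length per the file headers. Strandedness, multimapping reads and duplicates are not given in the sources used here, and 0 columns were left unmapped.

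The table has Ensembl identifiers without symbols. A RefSeq gene (GRCm38.p6) named the table's gene with which its reciprocal span overlap was 0.5 or more, unless a second partner came to 0.8 of that overlap. A second step, added after the table was seen, joined remaining genes that were each other's sole overlap at 0.3 or more, on the same strand where known. It named 1390 of the 35522 named genes, 7 of them described here.

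Each comparison was fitted on its own libraries over all genes in R 4.3.3 with the robust quasi-likelihood F test of edgeR 4.0.16, TMM factors and filterByExpr (count 10, total 15). P-values were adjusted by Benjamini-Hochberg over all genes tested, at a threshold of 0.05. The SE was taken from the log2 fold change and its F statistic. CPM use TMM over all 8 libraries, and TPM use summed exon length. DESeq2 1.42.0, limma-voom 3.58.1, 4 scalings, 2 filters, a fit of all libraries, a replicate block, a stricter span match, a length trend (loess span 0.5) and each library left out were alternatives. The test was checked on simulated counts with 200 changed genes. Of these, 50 each were raised 2-fold, 4-fold and 8-fold and 50 were lowered 2-fold, and genes at low levels were not drawn. Each gene had the same simulated spread in all groups. It recovered 64% of 2-fold increases and 42% of 2-fold decreases for CaMKIIβ RIP against IgG RIP. For CaMKIIβ RIP against Input these were 44% and 34%, and for IgG RIP against Input 86% and 76%. Many 2-fold changes would thus be missed in the comparisons of CaMKIIβ RIP. Python 3.11.15, pandas 2.3.3, scipy 1.17.1 and matplotlib 3.10.9 made tables and figures.

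Genes named with values were up to 10 lower and 10 higher genes past the threshold against Input with libraries that did not overlap, the 5 smallest p between the antibodies, the 5 highest and lowest Input TPM, the S18 paralogs, the stalk and Mrps36, and up to 4 genes of a described list. The genes and lists were chosen with earlier results of these data known. The sequences searched and printed are RefSeq promoters on GRCm38.p6. Intervals cover the spread between libraries, not how reads were assigned.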

Additional observations from a re-analysis of the deposited data

How the results depend on the processing

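In CaMKIIβ RIP against IgG RIP the count of genes past the threshold was 0 under every alternative run by edgeR, DESeq2 and limma-voom. The median log2 fold change was 0.14 with the length trend removed, against 0.03 over all genes. In CaMKIIβ RIP against Input, where 1 gene was lower, the count was 4 with library size scaling (5.26%, against 6.16% of all genes), 3 with no count filter (3.95% against 2.94%), 3 with DESeq2 (3.95% against 6.09%), 4 with limma-voom (5.26% against 5.87%), 6 in one fit of all 8 libraries (7.89% against 7.63%) and 9 with the replicate block (11.8% against 10.04%), which also called 1 higher gene (1.32% against 8.99%). These shares of lower genes lay near those of all genes. Against Input the replicate block rests on replicates 1 and 2, as no Input library is numbered 3. Leaving out a library gave 0 to 7, against 0% to 7.39% of all genes. The median there moved from -0.29 to -0.46 with library size scaling, -0.16 and -0.17 without CaMKIIβ RIP replicates 1 and 3, and 0.03 with the length trend removed. That of all genes moved from -0.12 to -0.29, -0.09, -0.14 and 0.09 under the same settings. In IgG RIP against Input, with 23 lower and 8 higher genes, library size scaling gave 43 and 2, and the fit of all libraries 9 and 1. Leaving out a library gave 11 to 25 lower and 2 to 7 higher, against 10.6% to 19.8% and 13.3% to 21.3% of all genes. The median moved from -0.21 to -0.44 with library size scaling, -0.29 and -0.15 without Input replicates 1 and 2, and -0.14 with the length trend removed. That of all genes moved from -0.02 to -0.25, -0.01, -0.01 and 0.05 under the same settings. With library size scaling the medians of these genes and of all genes thus moved down together against Input. The cause of these shifts was not tested. RLE and upper quartile scaling, TMM without mitochondrially encoded genes and the stricter filter kept every count of genes within 1.5 times its value, as did the stricter span match. No named gene changed sign while past the threshold. Of the named genes' values against Input, 22 gained and 3 lost the threshold in CaMKIIβ RIP, and 6 gained and 45 lost it in IgG RIP, over all alternatives. Deviations of same-numbered libraries from their group means correlated at -0.05 to 0.06. In groups of 2 or 3 libraries such deviations depend on each other. These values therefore cannot tell whether same-numbered libraries share animals or a batch. With the replicate block, IgG RIP against Input gave 27 lower (35.5%, against 19.3% of all genes) and 7 higher genes (9.21% against 20.6%). Between the antibodies the standard error ran from 0.11 for Mrpl48 to 0.70 for Mrps28. Mrps28 had 2.69, 11.5 and 1.16 CPM in CaMKIIβ RIP, with replicate 2 by far the highest. On average it had 3.22 CPM in IgG RIP and 4.03 in Input.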
